A study of Mus musculus with 6 samples.

Results

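Broad H3K9me3 regions of mouse quadriceps femoris were described, defined as regions of the deposited table on chromosomes 1 to 19 that spanned at least 2000 bp, after the 500 autosomal regions with the most counts over all libraries had been set aside. The rule used width and total count, not genotype, and it took 297 of 202553 regions. Of 405 autosomal regions of this width, 108 were among the 500 strongest, and another 10 regions of this width lay on X, Y or the mitochondrial chromosome; these were not included.

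H3K9me3 was profiled by CUT&Tag, an assay that brings a transposase to chromatin through an antibody so that nearby DNA is fragmented and given sequencing adapters, in instantly frozen skeletal muscle of 3 Prr14-KO and 3 Prr14-WT libraries. The Prr14-KO libraries were replicates 4, 5 and 7 and the Prr14-WT libraries were replicates 3, 4 and 8. The labels give genotype only: the allele, strain, sex, age, litter and batch are not given, nor whether each library came from a separate mouse, so that p-values measure the spread between these libraries. Prr14 encodes a nuclear lamina protein that binds the heterochromatin protein HP1.

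H3K9me3 is the histone mark bound by HP1 proteins and is laid down by SETDB1 and the SUV39H methyltransferases. It is known for long silent tracts over satellite repeats, transposable elements and clusters of tandemly repeated genes such as zinc finger and chemosensory receptor genes. KRAB zinc finger proteins recruit SETDB1 to transposable elements through TRIM28, and the clusters of zinc finger genes themselves carry the mark. In muscle, genes of other lineages are among those that lie in heterochromatin at the nuclear periphery.

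Library totals ran from 4324444 to 4756133 counts. Across whole muscle, fewer nuclei that carry the mark at a region and less mark per nucleus cannot be told apart. Of 153789 regions that could be tested, edgeR's quasi-likelihood test called 20 at a Benjamini-Hochberg adjusted p under 0.05. At the Prr14 locus, a 744 bp region that is not among the broad ones held 14, 56 and 54 counts in Prr14-KO replicates 4, 5 and 7, against 10, 18 and 10 counts in Prr14-WT replicates 3, 4 and 8. Prr14-KO replicate 4 lay within the Prr14-WT range there. The deleted stretch is not given, so these counts are no check of genotype. No broad region was assigned to a marker of muscle fibres, satellite cells, endothelium, fibroblasts, leukocytes or neurons on the lists used, so the mark here gives no check of cell type.

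Broad regions were long but not dense. Their median width was 2198 bp (quartiles 2078 and 2367), 255 spanned under 2500 bp, 37 spanned 2500 to under 3000 bp and 5 spanned 3000 bp or more. They covered 0.670 Mb, 0.785% of the length of all regions. Their density, in TMM-scaled CPM (each library's counts relative to its total) per kb over all 6 libraries, had a median of 8.98 (quartiles 7.53 and 11.1), against 10.2 (quartiles 7.78 and 13.3) for other autosomal regions and 54.1 for the 500 strongest. Setting the strongest aside caps this density, so the comparison is a description. Each held a median of 92.3 counts per library (range 43.2 to 148), against 15 for all regions.

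**Figure D1:**
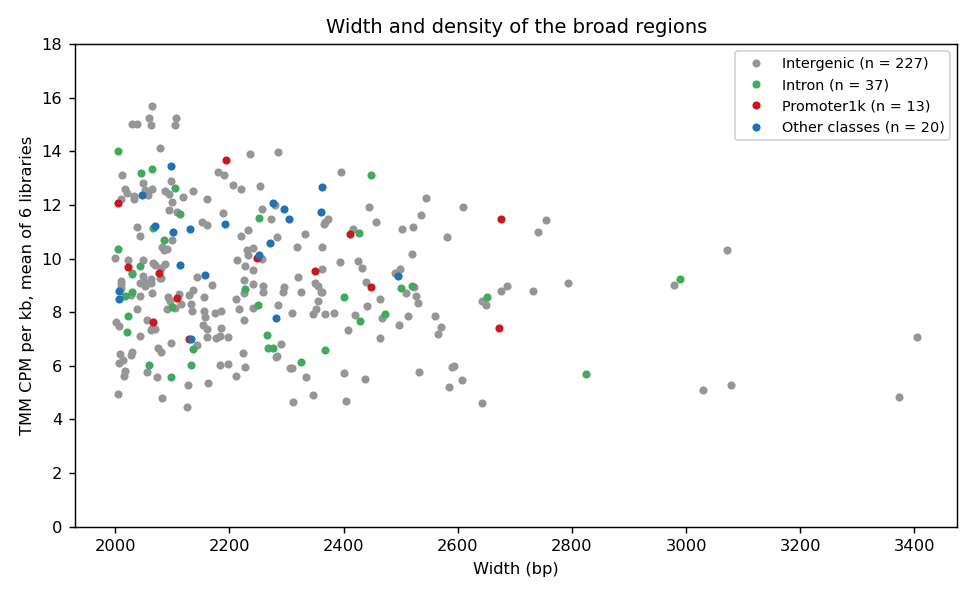
Width (bp) against density (TMM-scaled CPM per kb, mean of the 6 libraries) for each of the 297 broad regions, coloured by the authors' annotation class. Density runs from 4.46 to 15.7, the 5 regions of 3000 bp or more lie between 4.83 and 10.3, and the 13 Promoter1k regions are scattered through it.

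Most broad regions lay outside genes. The authors' annotation placed 227 (76.4%) between genes, against 67.7% of other autosomal regions, and 37 (12.5%) in introns, against 22.9%. A further 13 (4.38%) were of class Promoter1k, against 3.81%, 3 of class Promoter1-2k, 5 of class Promoter2-3k, 7 in exons and 5 in 3' UTRs. In the RefSeq annotation the midpoint of 97 regions (32.7%) fell inside a gene, against 40.2% of other autosomal regions. That count includes 37 regions that the authors' table calls intergenic. The start site assigned by the authors was over 100 kb away for 120 regions (40.4%), against 47.0%, and over 500 kb away for 34 (11.4%), against 14.3%. The median distance was 68560 bp, against 86271 bp. Assigned symbols are thus labels of position, and a symbol in the text names the nearest gene of that table.

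Some broad regions held no promoter window though their assigned start site was near. That of B3gat2 spanned 2350 bp, with its assigned start site 225 bp away. Promoter sequences are shown only for broad regions that covered a whole promoter window, so other start sites under the mark may be missing. Each is the 250 bases upstream of the start in RefSeq, build GRCm38.p6, written 5' to 3' on the strand of the gene, with the dinucleotide CG in capitals (CG reads the same on both strands). The windows are Grem1 at chr2:113758649-113758898 on the minus strand, Tbx1 at chr16:18588900-18589149 on the minus strand, Kcnk12 at chr17:87797995-87798244 on the minus strand, Mdga2 at chr12:67222550-67222799 on the minus strand, Slc7a14 at chr3:31310320-31310569 on the minus strand and Spata21 at chr4:141088095-141088344 on the plus strand. The first 5 hold more CG than the median autosomal window, and Spata21, which holds fewer, is shown as the contrast. Windows of gene models in broad regions are not printed, and their CG numbers are given below.
Grem1: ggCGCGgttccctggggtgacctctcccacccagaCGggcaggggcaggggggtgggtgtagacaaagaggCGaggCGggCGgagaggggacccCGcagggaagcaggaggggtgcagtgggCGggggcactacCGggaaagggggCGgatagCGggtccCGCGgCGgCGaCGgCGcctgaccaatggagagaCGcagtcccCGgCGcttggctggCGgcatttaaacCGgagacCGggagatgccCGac
Tbx1: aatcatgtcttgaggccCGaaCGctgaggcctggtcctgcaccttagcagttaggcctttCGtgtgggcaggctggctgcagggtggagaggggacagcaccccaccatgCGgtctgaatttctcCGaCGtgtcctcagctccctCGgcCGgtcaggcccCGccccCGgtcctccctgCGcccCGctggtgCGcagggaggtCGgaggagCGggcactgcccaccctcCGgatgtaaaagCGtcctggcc
Kcnk12: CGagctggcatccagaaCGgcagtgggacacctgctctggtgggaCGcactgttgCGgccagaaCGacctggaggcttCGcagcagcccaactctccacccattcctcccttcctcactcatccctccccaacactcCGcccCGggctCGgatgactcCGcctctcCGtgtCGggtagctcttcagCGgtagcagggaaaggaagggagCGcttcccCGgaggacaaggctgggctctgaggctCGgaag
Mdga2: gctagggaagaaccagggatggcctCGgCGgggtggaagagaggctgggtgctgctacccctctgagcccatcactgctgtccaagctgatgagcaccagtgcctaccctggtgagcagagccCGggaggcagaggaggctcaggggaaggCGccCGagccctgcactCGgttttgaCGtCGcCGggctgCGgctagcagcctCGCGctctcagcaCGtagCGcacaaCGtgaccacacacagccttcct
Slc7a14: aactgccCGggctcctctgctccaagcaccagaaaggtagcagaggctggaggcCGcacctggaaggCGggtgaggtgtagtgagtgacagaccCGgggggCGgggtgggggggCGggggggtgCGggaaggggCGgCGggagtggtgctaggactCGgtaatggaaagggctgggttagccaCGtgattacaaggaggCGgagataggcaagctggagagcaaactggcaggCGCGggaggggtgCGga
Spata21: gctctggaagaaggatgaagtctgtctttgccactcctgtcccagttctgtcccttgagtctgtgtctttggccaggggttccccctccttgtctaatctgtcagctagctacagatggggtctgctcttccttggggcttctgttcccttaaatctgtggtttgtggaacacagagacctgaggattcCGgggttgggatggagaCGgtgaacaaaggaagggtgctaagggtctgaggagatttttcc
The Grem1 window held 24 CG, a number reached by 12.3% of the 31396 autosomal windows of this length. The Tbx1 window held 17 (24.1% of windows hold as many), that of Kcnk12 held 16 (26.0%), those of Mdga2 and Slc7a14 held 15 (27.8%), and that of Spata21 held 2 (81.5%). Over all autosomal windows the median was 6 and the upper quartile 16, so Mdga2 and Slc7a14 were below that quartile. Broad regions touched 10 windows, with a median of 15 CG, and other autosomal regions touched 3417 windows, with a median of 13. Windows of Gm15496 (16 CG), Gm35369 (9), Gm51571 (2) and Gm36069 (1) made up the rest of the 10, so Spata21 was not alone in holding few. The Gm15496 window overlaps that of Slc7a14, so the shared bases enter the median of 15 in both. B3gat2, Iqcf1, Kcnv1, Lingo2, Rims2, Sgcz and Zfp72 are Promoter1k regions with no window inside.

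H3K9me3 over broad regions did not differ detectably between the genotypes. All 297 were tested, and edgeR called 0 higher and 0 lower in Prr14-KO, with a smallest adjusted p of 0.998; over all regions 0.013% were called. DESeq2 and limma-voom also called 0. At an unadjusted edgeR p under 0.05 there were 10 (3.37%), 5 higher and 5 lower, against 3.86% of all regions by edgeR. DESeq2 gave 2.69% of the broad regions and limma-voom 5.39%. No share over all regions is given for either tool, so these cannot be set against the 3.86%. The log2 change had a median of 0.01 (quartiles -0.12 and 0.15, range -0.56 to 0.61), against a median of 0.00 (quartiles -0.28 and 0.29) over all regions. It was above 0 for 158 and below 0 for 139.

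Intervals of broad regions were narrower than those of most regions, and their counts were larger. The median standard error of a log2 change was 0.21 (range 0.18 to 0.28), against 0.46 over the 153789 regions tested. Broad regions held a median of 92.3 counts per library, against 15 over all 202553 regions, tested or not. How far counts set the standard errors was not tested. Regions of like total had like standard errors: it was 0.205 at both Ide (591 counts) and Odad2 (594 counts). Their Prr14-KO SDs were 11.8 and 3.8 CPM. For 293 of 297 the 95% interval lay within 2-fold in both directions, and for 200 it lay within 1.5-fold. Within a genotype the median coefficient of variation of a region was 16.1% in Prr14-KO and 13.5% in Prr14-WT. Replicate variance averaged 3.21 times counting error in Prr14-KO and 2.48 times in Prr14-WT. Across the 297 regions, the correlation of log2(CPM + 0.5) averaged 0.699 over the 6 pairs of libraries of 1 genotype (range 0.656 to 0.757) and 0.700 over the 9 pairs of different genotypes (range 0.634 to 0.755). The points share their width and sequence in every library, so these are descriptions.

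**Figure D2:**
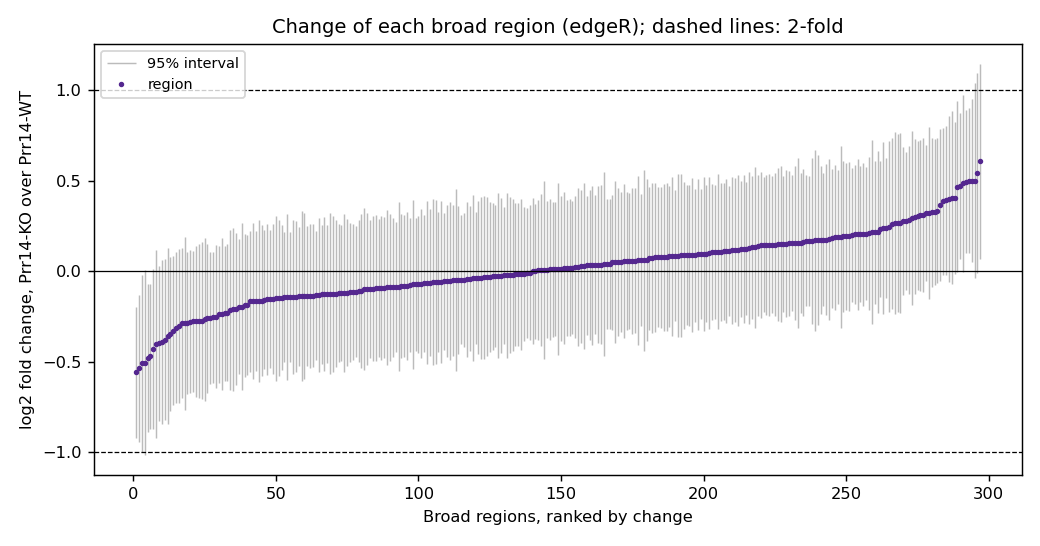
The log2 fold change (Prr14-KO over Prr14-WT, edgeR) of each of the 297 broad regions, ranked from lowest to highest, with its 95% interval as a grey bar and dashed lines at 2-fold. Values run from -0.56 to 0.61, and 293 intervals stay between the dashed lines.

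In 17 regions (5.72%) every Prr14-KO library exceeded every Prr14-WT library in CPM, against 4.7% of all regions tested. In 13 (4.38%) every Prr14-KO library was below every Prr14-WT library, against 4.91%. Both shares were near those of all regions. The regions with the smallest p in each direction are given next, and none of them passed the adjusted threshold (adjusted p 0.998 each, edgeR).

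An intron of Cntnap3, a contactin-associated cell adhesion protein (chr13:64831806-64834306), held 130, 96 and 122 counts in Prr14-KO, against 79, 80 and 100 counts in Prr14-WT. The means were 26.1 ± 3.3 CPM in Prr14-KO and 18.4 ± 2.8 CPM in Prr14-WT (SD, n = 3 each), with a log2 change of 0.50 ± 0.20 (SE). The libraries did not overlap in CPM. A region in an intron of Foxn3, a forkhead transcriptional repressor (chr12:99504753-99507403), held 127, 122 and 105 counts in Prr14-KO, against 88, 98 and 79 counts in Prr14-WT, with a log2 change of 0.50 ± 0.20 (SE). The libraries did not overlap here either. A region assigned to Slco6d1, an organic anion transporter, lay at a distance of -127730 bp to its start site. Its counts were 86, 64 and 89 in Prr14-KO, against 54, 62 and 62 in Prr14-WT, again without overlap in CPM.

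In 3 other regions with higher means the genotypes overlapped. Upstream of Ide, the insulin-degrading enzyme, counts were 179, 71 and 87 in Prr14-KO, against 81, 77 and 96 in Prr14-WT; replicate 4 was the only Prr14-KO library above the Prr14-WT range (log2 change 0.47 ± 0.20, SE). The region of Gm14325 held 80, 36 and 47 counts in Prr14-KO, against 38, 43 and 31 in Prr14-WT. Its log2 change, 0.61 ± 0.27 (SE), was the highest of all broad regions, and replicate 4 was again the highest library. Without Prr14-KO replicate 4 the log2 changes were 0.01 at Ide and 0.26 at Gm14325. Beside Pate14, a member of a family expressed in prostate and testis, counts were 77, 71 and 46 in Prr14-KO, against 57, 55 and 34 in Prr14-WT.

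The lowest log2 change, -0.56 ± 0.19 (SE), was beside Cyp2d40, a cytochrome P450 gene (chr15:82745512-82747574), which held 146, 131 and 58 counts in Prr14-KO, against 186, 195 and 138 in Prr14-WT. Prr14-KO replicate 7 was far below the other libraries, the genotypes overlapped in CPM, and without that library the log2 change was -0.26. The 3' UTR region of Oas1g, an oligoadenylate synthetase of the antiviral response (chr5:120878942-120881055), held 76, 76 and 72 counts in Prr14-KO, against 96, 133 and 114 in Prr14-WT. Its means were 16.8 ± 0.7 CPM in Prr14-KO and 24.4 ± 4.3 CPM in Prr14-WT (SD, n = 3 each), without overlap. Near Appl2, an endosomal adaptor, counts were 77, 78 and 69 in Prr14-KO, against 110, 104 and 116 in Prr14-WT, and all Prr14-KO libraries were lower.

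An intron of Cep128, a centriolar protein, held 51, 45 and 41 counts in Prr14-KO, against 79, 63 and 64 in Prr14-WT, without overlap. Beside the olfactory receptor gene Olfr1254 the counts were 38, 43 and 43 in Prr14-KO, against 50, 56 and 80 in Prr14-WT, also without overlap. Near Odad2, a docking protein of ciliary outer dynein arms, counts were 84, 95 and 62 in Prr14-KO, against 128, 130 and 95 in Prr14-WT, and the genotypes overlapped in CPM. These 6 regions had log2 changes from -0.56 to -0.47.

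**Figure D3:**
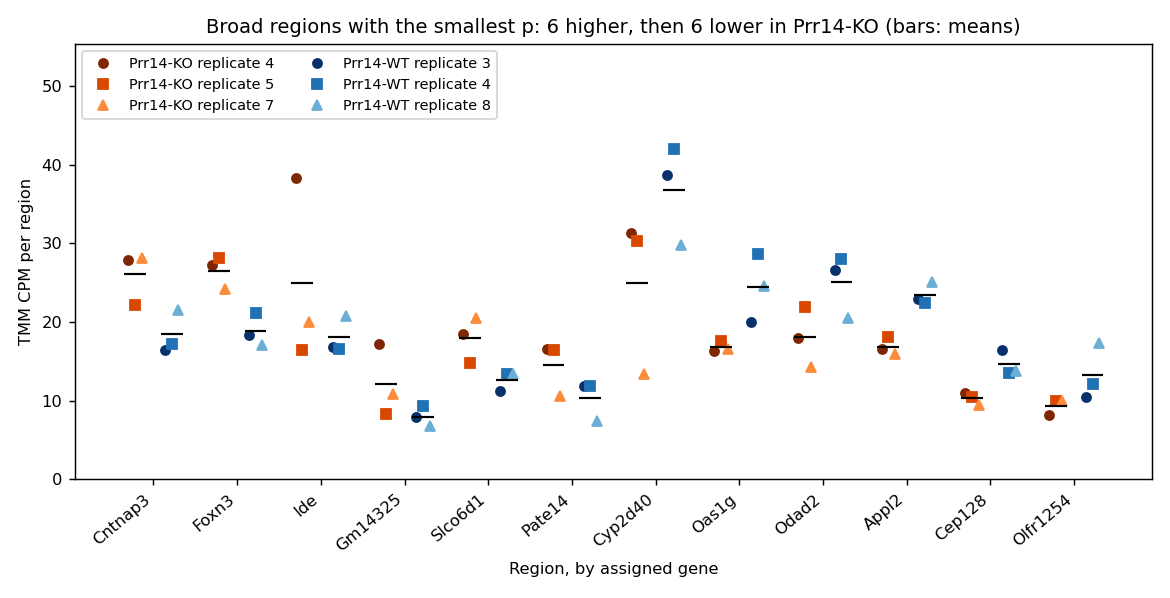
TMM-scaled CPM of the 6 broad regions with the smallest p among those higher in Prr14-KO (Cntnap3 to Pate14) and the 6 among those lower (Cyp2d40 to Olfr1254), 1 point per library with the Prr14-KO libraries on the left of each pair and bars at the means. The single high Prr14-KO point at Ide and the single low one at Cyp2d40 stand apart from their own genotype.

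The share of all counts that fell in broad regions was 0.669%, 0.589% and 0.592% in Prr14-KO replicates 4, 5 and 7, against 0.620%, 0.634% and 0.596% in Prr14-WT replicates 3, 4 and 8. The means were 0.617% ± 0.045 in Prr14-KO and 0.616% ± 0.019 in Prr14-WT (SD, n = 3 each; log2 ratio 0.00, two-sided exact permutation p = 1.0). With 3 libraries against 3, this exact test cannot go below p = 0.10. Prr14-KO replicate 4 held the largest share and the other Prr14-KO libraries the 2 smallest. Without it the log2 ratio was -0.06 (two-sided exact permutation p = 0.2), and the median log2 change of the regions was -0.06, with 110 of 297 above 0.

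Prr14-KO replicate 4 differed from the other libraries with the width of the regions. Its summed CPM, as a percentage of the 6-library mean, was 94.1 in autosomal regions under 200 bp, 99.0 at 300 to 499 bp, 105.0 at 1000 to 1499 bp, 108.4 at 2000 to under 2500 bp and 113.5 at 2500 to under 3000 bp. In the 5 regions of 3000 bp or more it was 128.3. Replicates 5 and 7 of Prr14-KO went the other way, with 104.5 and 102.2 under 200 bp and 95.9 and 95.5 at 2000 to under 2500 bp. Prr14-WT replicate 8 had 100.7 and 96.8 in those classes, replicate 4 had 98.5 and 103.2, and replicate 3 had 99.9 and 100.1. In CPM, Prr14-KO replicate 4 was the highest library in 111 of 297 broad regions, and each of the other libraries in 22 to 59. The labels give no preparation or sequencing details that set it apart, and the part of this library in each result was not tested beyond leaving it out.

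**Figure D4:**
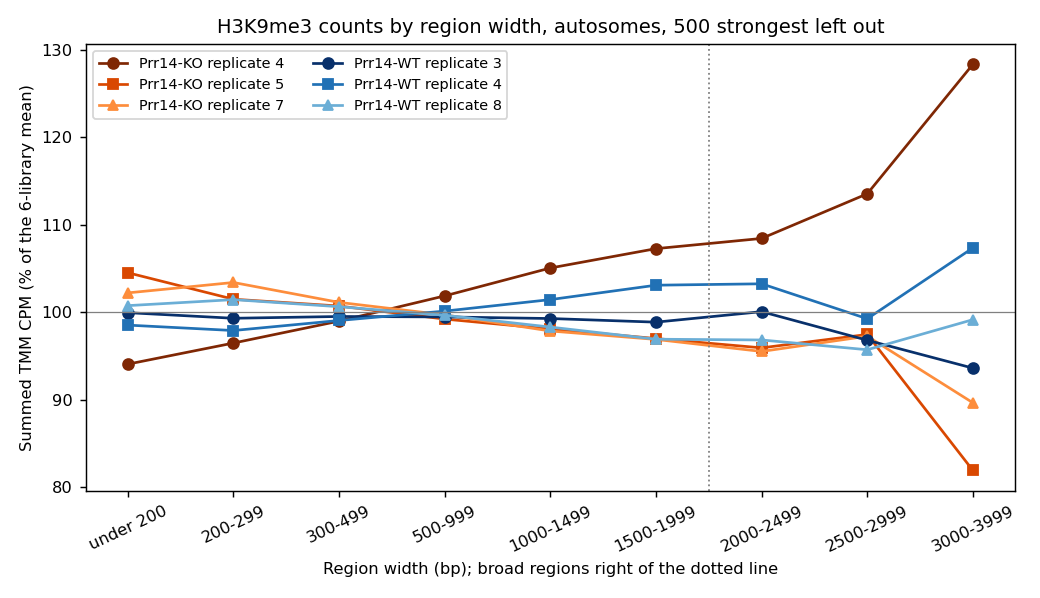
Summed TMM-scaled CPM of autosomal regions by width class (bp), as a percentage of the mean of the 6 libraries, with 1 line per library and the 500 strongest regions left out. Prr14-KO replicate 4 climbs from 94.1 under 200 bp to 128.3 in the 5 regions of 3000 bp or more, while the other 5 libraries lie between 95.5 and 103.2 at 2000 to under 2500 bp.

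Zinc finger genes were the assigned gene at 15 broad regions (5.05%), against 1.83% of other autosomal regions. Their log2 changes ran from -0.12 (Zfp109) to 0.26 (Zfp386), with a median of 0.08 and 13 of 15 above 0, against a median of 0.01 over all 2974 zinc finger regions tested; 0 of the 15 passed the test. Zfp979, on the zinc finger cluster of chromosome 4, had the most counts among them, with 198, 126 and 108 in Prr14-KO, against 124, 164 and 152 in Prr14-WT (log2 change 0.04 ± 0.18, SE). The 3' UTR region of Zfp12 held 136, 130 and 141 counts in Prr14-KO, against 129, 150 and 133 in Prr14-WT, and at Zfp979 and Zfp12 alike the genotypes overlapped. Prr14-KO replicate 4 was the highest library in 9 of the 15, with a summed CPM 22.1% above the mean of the other 5. Without it the median was -0.03, with 7 of 15 above 0. The only broad region assigned to a gene of the heterochromatin machinery list was that of Zfp808, a KRAB zinc finger gene, with 68, 56 and 65 counts in Prr14-KO, against 60, 77 and 42 in Prr14-WT.

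Chemosensory receptor genes were next. Genes of the vomeronasal and trace amine receptor list were assigned at 12 broad regions (4.04%), all of them vomeronasal, against 1.17% of other autosomal regions for the same list, and olfactory receptor genes at 9 (3.03%), against 2.03%. The vomeronasal regions had a median log2 change of 0.06 (range -0.19 to 0.31), against 0.01 for all 1943 tested regions of that list, and the olfactory ones a median of -0.03 (range -0.50 to 0.15), against -0.01 for 3375. Of both families 0 passed the test. Without Prr14-KO replicate 4 the medians were -0.04 for the vomeronasal regions and -0.10 for the olfactory ones. Vmn1r41 held 154, 80 and 128 counts in Prr14-KO, against 128, 138 and 90 in Prr14-WT, and Vmn1r66 held 128, 97 and 109 in Prr14-KO, against 111, 123 and 110 in Prr14-WT. Beside Olfr1508, whose midpoint lies in the T cell receptor alpha locus, counts were 144, 86 and 100 in Prr14-KO, against 161, 161 and 88 in Prr14-WT, and beside Olfr1355 they were 141, 98 and 99 in Prr14-KO, against 99, 116 and 106 in Prr14-WT. In all 4 the genotypes overlapped.

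Cytochrome P450 genes were assigned at 7 broad regions (2.36%), against 0.699% for the list of Cyp, Ugt and Serpin genes among other autosomal regions. Apart from Cyp2d40 (above) and Cyp2c66 (log2 change -0.43 ± 0.23, SE), their log2 changes lay between -0.16 and 0.09. The median was 0.03, with 4 of 7 above 0, and -0.18 with 1 of 7 above 0 without Prr14-KO replicate 4. It was also below 0 without Prr14-WT replicate 3 (-0.04) or 4 (-0.02). Their share of counts had a log2 ratio of -0.18, with overlap (two-sided exact permutation p = 0.4). At Cyp2c37 the counts were 126, 103 and 103 in Prr14-KO, against 106, 108 and 115 in Prr14-WT. Pcdh17 and Pcdh18, protocadherins of cell adhesion outside the clustered loci, had log2 changes of 0.01 and 0.08. Gene models were the assigned gene at 23 regions, with a median log2 change of -0.05, against 0.00 for 10159 gene model regions tested. Without Prr14-KO replicate 4 this median was -0.18, and it was above 0 without Prr14-KO replicate 5 (0.05), Prr14-KO replicate 7 (0.02) or Prr14-WT replicate 4 (0.02). The gene model regions with the highest mean CPM were those of Gm10715, with 135, 123 and 120 counts in Prr14-KO, against 157, 146 and 173 in Prr14-WT and no overlap in CPM, and C130026I21Rik. No broad region was assigned to the 30 muscle fibre genes listed, whose 262 regions reached 1572 bp at the widest, or to the 26 imprinted genes.

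The 13 Promoter1k regions had a median log2 change below 0, and 0 of them passed the test. Their log2 changes had a median of -0.11, with 3 of 13 above 0, against a median of 0.08 over 5856 Promoter1k regions tested. Their share of counts was 0.0270%, 0.0261% and 0.0295% in Prr14-KO, against 0.0309%, 0.0277% and 0.0303% in Prr14-WT (log2 ratio -0.11, two-sided exact permutation p = 0.2). The median kept its sign when each library was left out, from -0.18 to -0.01. Prr14-KO replicate 4 was the highest library in 1 of the 13. The distance to the assigned start site ran from -883 to 1786 bp, so that the class is not set by this distance alone.

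Grem1, an antagonist of BMP signalling whose promoter sequence is printed above (chr2:113757019-113759690), held 101, 104 and 95 counts in Prr14-KO, against 95, 68 and 79 in Prr14-WT. Its means were 22.5 ± 1.3 CPM in Prr14-KO and 17.2 ± 2.6 CPM in Prr14-WT (SD, n = 3 each; log2 change 0.39 ± 0.21, SE), without overlap. Sgcz, the zeta-sarcoglycan of the dystrophin-associated complex, held 91, 71 and 70 counts in Prr14-KO, against 103, 94 and 110 in Prr14-WT (log2 change -0.33 ± 0.21, SE), without overlap in CPM. Kcnv1, a modulatory potassium channel subunit, held 97, 95 and 99 counts in Prr14-KO, against 141, 108 and 124 in Prr14-WT (log2 change -0.28 ± 0.20, SE), also without overlap.

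In the broad regions that cover the other windows printed above, the genotypes overlapped. Counts are those of the whole region, not of the window. Tbx1, a T-box transcription factor of pharyngeal and craniofacial muscle development, held 155, 104 and 135 counts in Prr14-KO, against 164, 160 and 125 in Prr14-WT. Mdga2, a synaptic adhesion protein, held 125, 97 and 142 counts in Prr14-KO, against 178, 135 and 147 in Prr14-WT. Kcnk12, a potassium channel gene, held 147, 103 and 104 counts in Prr14-KO, against 123, 126 and 121 in Prr14-WT. Slc7a14, of an amino acid transporter family, held 99, 92 and 116 counts in Prr14-KO, against 117, 86 and 106 in Prr14-WT. The region of Spata21, whose window has few CG, held 61, 45 and 66 counts in Prr14-KO, against 73, 84 and 81 in Prr14-WT (log2 change -0.39 ± 0.23, SE).

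**Figure D5:**
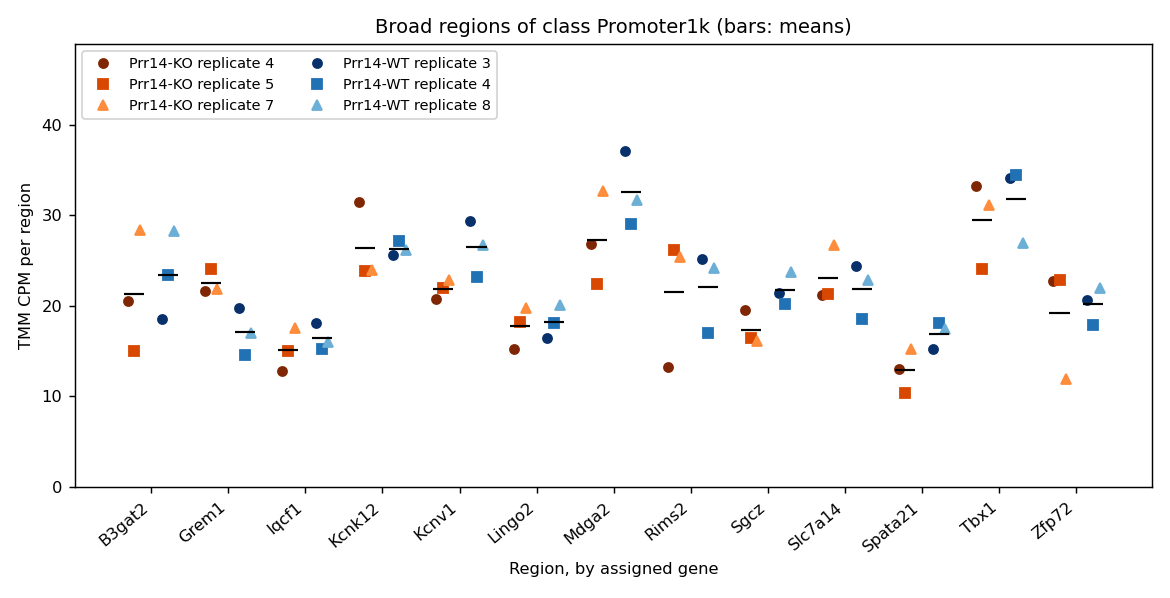
TMM-scaled CPM of the 13 broad regions of class Promoter1k, 1 point per library with the Prr14-KO libraries on the left of each pair and bars at the means. Grem1 has all Prr14-KO points above the Prr14-WT points, Kcnv1 and Sgcz have them below, and the other regions overlap.

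Among the annotation classes, the 3 Promoter1-2k regions had the only share of counts without overlap, with 0.00603%, 0.00567% and 0.00571% in Prr14-KO, against 0.00618%, 0.00667% and 0.00699% in Prr14-WT (log2 ratio -0.19, two-sided exact permutation p = 0.10, 0.467 after Benjamini-Hochberg adjustment over 7 classes). By chromosome, log2 ratios ran from -0.11 on chromosome 18 to 0.08 on chromosome 17, and all 19 overlapped. Without Prr14-KO replicate 4, 6 of the 19 had both remaining Prr14-KO libraries below all Prr14-WT libraries. Those libraries also held the smallest shares over all broad regions (0.589% and 0.592%), so the chromosomes are not separate results. Chromosome 1 held 24 broad regions, the most, and chromosome 19 held 6, the fewest.

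The widest broad region spanned 3405 bp (chr3:20634684-20638088), with 117, 83 and 104 counts in Prr14-KO, against 114, 128 and 117 in Prr14-WT. It was assigned to Agtr1b, a type 1 angiotensin receptor gene, at a distance of -269209 bp to its start site. It was followed by those of Gm21863 (3373 bp), Gm14393 (3079 bp), Zfp979 (3071 bp), Vmn1r3 (3029 bp) and Wwox (2990 bp), whose log2 changes lay between -0.05 and 0.22. Gm21863 held 104, 49 and 62 counts in Prr14-KO, against 81, 78 and 75 in Prr14-WT, and Prr14-KO replicate 4 was the highest library there. Wwox, a WW-domain oxidoreductase, held 163, 119 and 107 counts in Prr14-KO, against 138, 123 and 109 in Prr14-WT. All 6 widest regions overlapped between genotypes.

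The densest broad region was assigned to Tecrl, an enoyl-CoA reductase relative of heart muscle, at 15.7 CPM per kb, with 168, 124 and 134 counts in Prr14-KO, against 171, 156 and 137 in Prr14-WT. Regions assigned to Stpg2 (15.3), Ndufa4, a respiratory chain subunit (15.2), Dok5, an adaptor of receptor tyrosine kinases (15), and Hace1, a ubiquitin ligase (15), came next, with log2 changes from -0.14 to 0.17. Cyp2d40, described above, was the sixth densest. That of Hace1 lay 1300703 bp from its assigned start site. The least dense were those of Fam120a, an RNA-binding protein (4.46), Il7r, the interleukin 7 receptor (4.62), and Mtrr, methionine synthase reductase (4.65). Fam120a held 51, 42 and 57 counts in Prr14-KO, against 46, 37 and 26 in Prr14-WT, without overlap in CPM.

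Broad regions had about as many neighbours of any width as other autosomal regions. Within 50 kb of each there was a median of 11 other regions of any width (range 1 to 24), against 10 for other autosomal regions. No number of close pairs was computed for other placements. Counting each broad region with the next along its chromosome, 7 pairs lay within 100 kb of each other. They were 2 pairs formed by 3 successive regions at Mucl2 on chromosome 15, and 1 pair each at Akap1 and Scpep1, Arrdc3, Zfp979 and Zfp984, Vmn1r40 and Vmn1r41, and Pate12 and Pate11. The 3 Mucl2 regions had log2 changes of -0.28, 0.19 and 0.15. Another 8 symbols were assigned 2 broad regions each, namely Kcnt2, Cdh7, Slc7a14, Tafa5, Lingo2, Nrg3, Arrdc3 and Vrk2. Of these, Cdh7, a cadherin, had log2 changes of 0.41 ± 0.22 and 0.22 ± 0.20 (SE), and the distal region of Lingo2, a leucine-rich repeat membrane protein, held 132, 93 and 89 counts in Prr14-KO, against 82, 95 and 86 in Prr14-WT, without overlap in CPM.

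At the limits of the rule, the narrowest regions inside were those of Gm11096 (2000 bp) and Slco6d1 (2001 bp), and the widest outside were those of Fam98a (1998 bp) and Fcho1 (1997 bp). By total count over the 6 libraries, the highest inside were Tecrl (890 counts) and Stpg2 (882), and the lowest regions of this width set aside were Fam135b (900) and Gm3604 (909).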

How the data were processed

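H3K9me3 CUT&Tag libraries of quadriceps femoris were grouped by genotype label. Trimmomatic, BWA, MACS2, deepTools, bedtools, DESeq2 1.6.3 and build GRCm38 appear in the submitters' processing notes. How regions were called (pooled or per library) and the base from which positions count were not given there or in the labels, and positions are printed as deposited. The authors deposited whole-number counts per region and library, used here. Their deposited normalised signal, log2 fold change, p-value and adjusted p-value entered no test. The deposited score, of unstated meaning, set 1 alternative. Width is end minus start plus 1.

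Counts of all regions were fitted in R 4.3.3 with edgeR 4.0.16 (filterByExpr, minimum count 10, minimum total 15; TMM; quasi-likelihood), with Benjamini-Hochberg adjustment over all regions tested. All 297 broad regions passed the filter. The code was tested on simulated data. For shares of counts, an exact permutation test (two-sided) was used. Alternatives were RLE factors, library totals, DESeq2 1.42.0, limma-voom (limma 3.58.1), other filters, widths and numbers of strongest regions, and each library left out. The broad regions, lists and naming rule were chosen with earlier results of these data known. The rule named the 6 smallest p per direction, the 6 widest, the 6 densest, the 3 least dense, the symbols with most regions, the 2 highest per family, the limits and Prr14. Promoter1k regions, and other regions named for their values, were chosen after those values were seen. Promoter sequences and gene spans came from RefSeq tables of GRCm38.p6. The labels name no spike-in, so scaling removes any change common to all regions. Each region's interval rests on 3 libraries per genotype and on a spread shared across regions, with little weight on its own spread. Ide, with a Prr14-KO SD of 11.8 CPM, and Oas1g, with 0.67 CPM, had standard errors of 0.20 and 0.21.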

Additional observations from a re-analysis of the deposited data

How the results depend on the processing

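Of the broad regions, 0 were called under all 18 alternatives, among them RLE size factors, library totals, DESeq2, limma-voom, other filters, widths of 1500 and 3000 bp, none or 1000 of the strongest left out, an adjusted p of 0.10, a deposited score of at least 5 and each library left out. The share with an unadjusted p under 0.05 was 5.39% with limma-voom and 0% at 3000 bp, where 5 regions remain. It ran from 3.37% to 5.39% when a library was left out (edgeR, 3.37% with all libraries). No share over all regions is given for limma-voom or for a library left out, so 5.39% has no reference here. The log2 ratio of the share of counts in broad regions, 0.00, was -0.010 at 3000 bp and ran from -0.062 (without Prr14-KO replicate 4) to 0.033 when a library was left out; the sign was negative also without Prr14-WT replicate 8 (-0.023). With none of the strongest left out, 0 annotation classes were lower without overlap (1 as reported), 1 chromosome was higher and 1 gene family was lower (0 as reported for each). When a library was left out, the number without overlap ran from 1 to 2 for classes lower, 0 to 2 for chromosomes higher, 0 to 6 for chromosomes lower, 0 to 1 for families higher, 0 to 2 for families lower and 0 to 2 for width classes lower; the highest for chromosomes lower came without Prr14-KO replicate 4. The cause was not tested. The log2 changes of the 12 regions with the smallest p kept their sign under the other scalings, tools and count filters and without each library, though that of Ide was 0.01 without Prr14-KO replicate 4. No paired analysis was possible because the genotypes share only replicate number 4, fewer than 2 numbers.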
